A study of Arabidopsis thaliana with 30 samples.

Results

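The 50 auxin signalling genes described here are the 29 Aux/IAA genes, 15 ARF genes (ARF1 to ARF11 and ARF16 to ARF19) and the 6 receptor genes TIR1 and AFB1 to AFB5 of Arabidopsis thaliana. They were taken by locus code, without regard to their values, from a table of 32548 genes. The table covers 9 mutants and the wild type Col-0, as whole seedlings grown for 12 days on MS plates at 22 °C with 16 h of light and 8 h of dark, with 3 libraries per genotype and 30 in all. The mutants that lack a single subunit are ada2a-/-, ada2b-/-, eaf6-/-, gcn5-/-, ing1-/-, sdrl-/- and spc-/-. The double mutants ada2a-/-spc-/- and spc-/-ing1-/- are written below as ada2aspc and spcing1. The labels name no allele. All mutants were set against the same 3 Col-0 libraries, so the comparisons are not independent of each other.

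GCN5 acetylates histones as the catalytic subunit of several protein complexes. ADA2B belongs to the SAGA complex found across eukaryotes, and EAF6, SDRL, ING1, SPC and ADA2A belong to PAGA, a GCN5 complex of plants. Auxin is perceived in the nucleus by F-box proteins of the TIR1/AFB family, the substrate-binding part of an SCF ubiquitin ligase. Auxin joins the receptor to the degron of an Aux/IAA protein, which is then degraded. Aux/IAA proteins bind ARF transcription factors and, with TPL co-repressors, keep ARF target genes off, so their loss releases the ARFs. Many Aux/IAA genes are themselves ARF targets, which makes the pathway a negative feedback loop, and in seedlings it is known for its part in hypocotyl growth, root branching and vein formation.

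Each gene has a normalised signal in the deposited table, not a read count, and log2 fold changes are on the scale of log2(signal + 1), with their standard error. A gene was called where limma gave an adjusted p below 0.05 over the 21868 genes tested. Whether the libraries of a genotype were grown apart is not in the labels, so the spread behind each p-value may be only technical. Column totals were 30914000 to 32096820 in ada2b and 32623346 to 33352943 in gcn5, against 36321329 to 41548748 in the other mutants and 37686267 to 37796775 in Col-0. Dividing by column totals shifted the median log2 fold change over all genes by 0.26 in ada2b, by 0.2 in gcn5 and by -0.1 to 0.04 in the other mutants, so the splits of the members and of each gene list into higher and lower are also given under that scaling. The transcripts of the mutated genes were lower than in Col-0 where the reference names the locus: GCN5 had a mean signal of 304.7 in gcn5 and 619 in Col-0, ADA2B 1084 in ada2b and 1500.5 in Col-0, ADA2A 14.8 in ada2a and 589 in Col-0, ING1 159 in ing1 and 707 in Col-0, and EAF6 118 in eaf6 and 825 in Col-0. For SPC and SDRL no locus was looked up, so their labels went unchecked.

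Marker transcripts of green shoot tissue and of root differed from Col-0 in ada2b and gcn5, and some of them also in the other mutants. Of 11 marker genes of green shoot tissue, 10 were called lower in ada2b and 11 in gcn5, and their summed signal per kilobase was 275386 to 367347 in ada2b, 433782 to 449517 in gcn5, 750753 to 980870 in the other mutants and 1087072 to 1155003 in Col-0. Of 11 root markers, 9 were called higher in ada2b and 8 in gcn5, with summed signals per kilobase of 8263 to 10985 in ada2b, 7293 to 9265 in gcn5, 2854 to 6143 in the other mutants and 4077 to 5952 in Col-0. After division by column totals 10 green shoot markers were lower in ada2b and 10 in gcn5, and 9 root markers were higher in each. In the other mutants 2 (sdrl) to 8 (eaf6) green shoot markers were called lower, and 5 (ada2a) to 11 (ada2aspc) with column totals. Under the deposited scaling root markers were called higher in eaf6 (4) and lower in ada2a (4), spc (1), sdrl (3), ada2aspc (2) and spcing1 (5). The summed signals are under the deposited scaling only. No marker of either list was at 0 in all libraries. The touch-induced gene TCH4 had mean signals of 16518 to 44138 in the other 7 mutants, against 400.2 in gcn5, 1067 in ada2b and 593 in Col-0, and the morning clock gene CCA1 had means of 22.2 to 297 in the 9 mutants, against 1462 ± 497 in Col-0 (SD, n = 3). Whether tissue makeup, handling or time of day had a part in the results below was not tested. In whole seedlings, fewer cells of a type and less RNA per cell cannot be told apart.

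Of the 50 genes, 48 had enough signal to be tested: 27 Aux/IAA genes, all 15 ARF genes and all 6 receptors. IAA15 was listed at 0 in all gcn5, ada2b and Col-0 libraries and reached 5.88 at most elsewhere, and IAA33 lay between 0 and 9.59. More of the auxin signalling genes were called lower than higher in ada2b and gcn5, and more were called higher than lower in the other mutants. After division by column totals this held in all mutants but gcn5 (11 lower and 14 higher) and spcing1 (12 and 12). In ada2b 26 of 48 were called lower and 3 higher, with a median log2 fold change of -0.39 against 0.01 over all genes tested. In gcn5 20 were called lower and 5 higher, with a median of -0.13 against -0.02.

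Large numbers of all genes were called in these comparisons, and the members are to be read against that. In ada2b 60.4% of the members were called (54.2% lower and 6.25% higher), against 51.6% of all genes (28.1% lower and 23.5% higher). In gcn5 52.1% of the members were called (41.7% lower and 10.4% higher), against 42.7% of all genes (24.5% lower and 18.2% higher). A fall of at least 2-fold was called for 20.8% of members and 12.9% of all genes in ada2b, and for 8.33% and 6.85% in gcn5. After division by column totals 20 members were lower and 13 higher in ada2b, and 11 were lower and 14 higher in gcn5. The members' median stayed 0.41 below that of all genes in ada2b and 0.1 below it in gcn5 under that scaling, as under the deposited one (0.4 and 0.1).

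The other 7 mutants had more members called higher than lower, and 39.6% (ing1) to 62.5% (eaf6) of the members were called. In ada2a 15 were higher and 5 lower, against 15.1% higher and 14.5% lower among all genes (29.7% called). In spc 16 were higher and 5 lower, against 20.3% and 19.7% (39.9% called), and in ing1 13 and 6, against 17.5% and 18.2% (35.7%). In sdrl the counts were 14 and 7, against 17% and 18.9% (35.8%), and in eaf6 16 and 14, against 25.2% and 25.9% (51%). The double mutant ada2aspc had 18 higher and 6 lower, against 21.7% and 22.8% (44.4%), and spcing1 16 and 8, against 20.9% and 23.9% (44.9%). After division by column totals these splits were 11 higher and 9 lower in ada2a, 14 and 6 in spc, 11 and 6 in ing1, 13 and 10 in sdrl, 18 and 13 in eaf6, 14 and 9 in ada2aspc and 12 and 12 in spcing1. The share of members called higher was 31.2% in ada2a, 33.3% in spc, 27.1% in ing1, 29.2% in sdrl, 33.3% in eaf6, 37.5% in ada2aspc and 33.3% in spcing1. No test of the members against other genes was made.

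**Figure D1:**
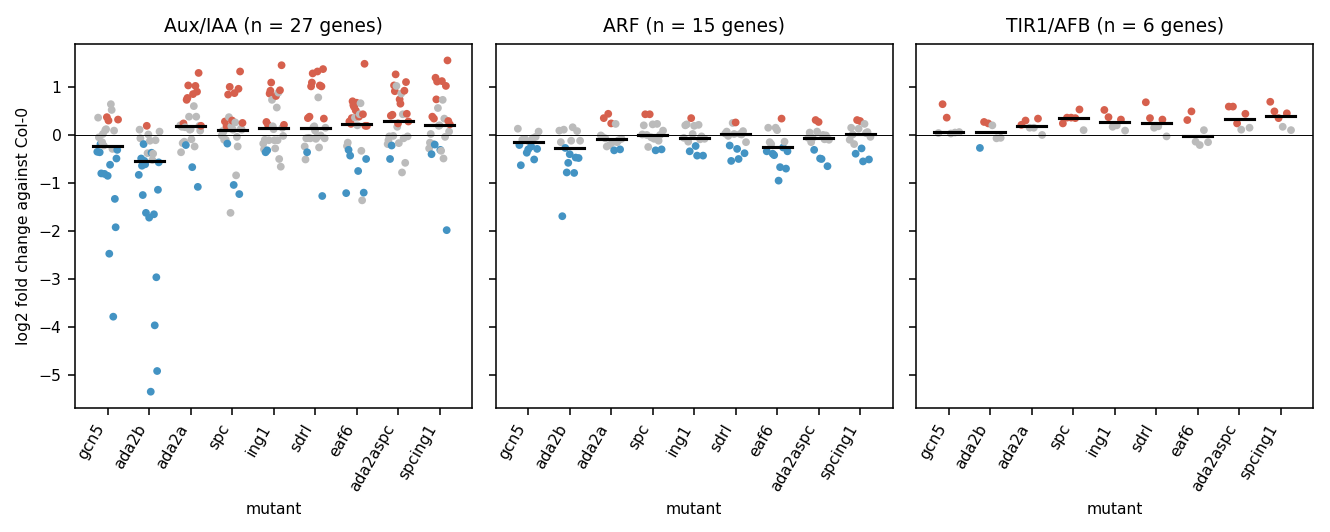
Log2 fold change against Col-0 of each tested member by family (27 Aux/IAA, 15 ARF and 6 TIR1/AFB genes) in each of the 9 mutants. Each point is a gene, red where called higher, blue where called lower and grey where there was no call, and the line is the median of the family. Aux/IAA points reach down to -5.34 in ada2b, and the Aux/IAA median is -0.54 in ada2b and -0.22 in gcn5.

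Of 27 Aux/IAA genes 17 were lower and 1 higher in ada2b, and 13 were lower and 3 higher in gcn5. Of 15 ARF genes 8 were lower in ada2b and 7 in gcn5, and no ARF gene was called higher in either mutant. Of 6 receptor genes 2 were higher and 1 lower in ada2b, and 2 were higher in gcn5. After division by column totals the Aux/IAA calls were 15 lower and 4 higher in ada2b and 9 lower and 7 higher in gcn5, the ARF calls 5 lower and 4 higher in ada2b and 2 lower and 2 higher in gcn5, and 5 receptors were higher in each. No test between the families was made.

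Summed over each family per kilobase of exon, the Aux/IAA signal was 22723 ± 131 in ada2b, 27526 ± 894 in gcn5, 33690 (eaf6) to 40339 (ada2aspc) in the other 7 mutants and 30205 ± 1049 in Col-0 (mean ± SD, n = 3). Under the deposited scaling the 3 ada2b and the 3 gcn5 libraries all lay below the Col-0 libraries, and every library of the other mutants lay above them. The ARF sum was 8697 ± 294 in ada2b, 9160 ± 599 in gcn5 and 9360 ± 203 in eaf6, against 10472 ± 273 in Col-0, and the other 6 mutants lay at means of 10546 to 11167. The receptor sum was 4697 ± 314 in ada2b, 5282 ± 69.4 in gcn5 and 5933 ± 318 in ada2aspc, against 4586 ± 45.1 in Col-0, and the libraries of ada2b overlapped those of Col-0. These sums were not recomputed with column totals, a scaling that would raise ada2b and gcn5 against Col-0. The places of both mutants below Col-0 in the Aux/IAA and ARF sums are thus shown for the deposited scaling only and may not hold under the other. It moved the Aux/IAA median log2 fold change from -0.22 to -0.02 in gcn5 and from -0.54 to -0.28 in ada2b. The ARF median moved from -0.15 to 0.05 in gcn5 and from -0.27 to -0.01 in ada2b. The receptor median moved from 0.05 to 0.25 in gcn5 and from 0.07 to 0.34 in ada2b.

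Within a family a few genes made up most of the signal per kilobase in Col-0. Among Aux/IAA genes IAA9 led with 5195 per kilobase, followed by IAA7 with 4572, IAA8 with 4206, IAA16 with 3734, IAA4 with 2083 and IAA2 with 1779. ARF2, a repressor ARF known for its part in ageing and seed size, led the ARF genes with 3549, followed by ARF1 with 1255 and ARF6 with 742. Among the receptors the order was TIR1 with 1353, AFB5 with 1190, AFB2 with 783, AFB1 with 522, AFB3 with 497 and AFB4 with 239.9. The ranges of AFB1 (508.46 to 532.39) and AFB3 (482.61 to 508.16) nearly met but did not overlap.

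**Figure D2:**
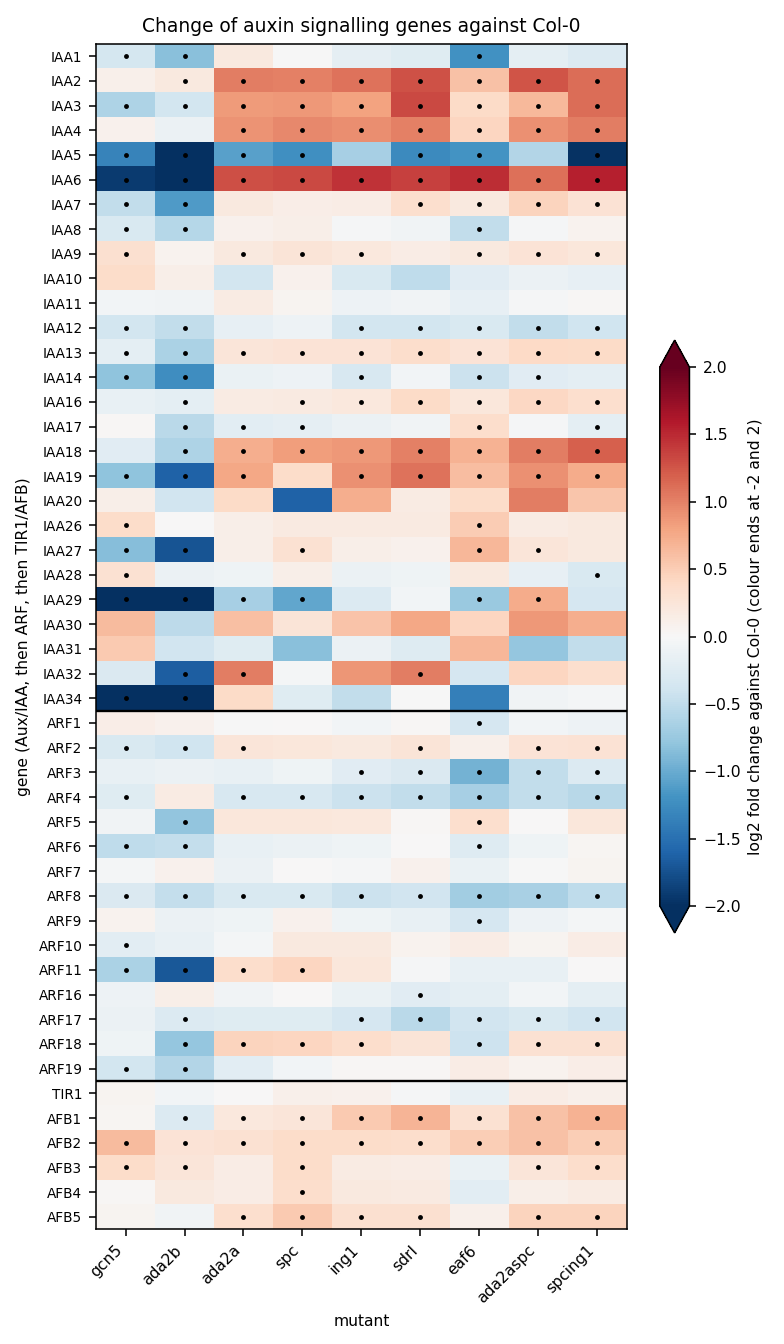
Log2 fold change against Col-0 of the 48 tested members (rows, by family) in 9 mutants (columns), on a colour scale that ends at -2 and 2, with a dot where the gene was called. The blue block of Aux/IAA genes under gcn5 and ada2b and the red rows of IAA2, IAA3, IAA4, IAA6 and IAA18 under the other 7 mutants are the main features.

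The receptors changed less than the Aux/IAA genes, and none of them moved by 2-fold in any mutant. TIR1, the founding auxin receptor (AT3G62980, TAIR10.1 chromosome 3, 23273065 to 23276630, minus strand), had signals of 3246, 3046 and 4133 in ada2b and 3521, 3725 and 3946 in gcn5, against 3595, 3657 and 3499.6 in Col-0. It was called in no mutant, with log2 fold changes between -0.15 in eaf6 (adjusted p = 0.0989) and 0.15 in ada2aspc (adjusted p = 0.115). Under division by column totals TIR1 was called higher in ada2b, at 0.21 (adjusted p = 0.0132). miR393 guides the cleavage of receptor transcripts, and the receptors differ in how well its site is kept, so the mature miRNA (seed, bases 2 to 8, in capitals) and the site of each receptor that keeps it (bases that do not form a Watson-Crick pair with the miRNA in capitals) are shown, read from the TAIR10.1 genome with RefSeq gene models.
miR393 (chr2:16652111-16652132, plus strand): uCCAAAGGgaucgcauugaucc
TIR1 (chr3:23273727-23273748, minus strand): gAGAcaaugcgaucccuuugga
AFB1 (chr4:1405341-1405362, minus strand): gAGAcCaugcgaucccuuugga
AFB2 (chr3:9870237-9870258, plus strand): gAaAcaaugcgaucccuuugga
AFB3 (chr1:4369085-4369106, minus strand): gAaAcaaugcgaucccuuugga

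AFB2 and AFB3 share the same 22-base site, with 2 unpaired bases. TIR1 has 3 such bases, of which 1 is a G:U pair, and AFB1 has 4. The best window in AFB4 leaves 7 bases unpaired and that in AFB5 leaves 8, so these have no site of this kind. AFB2 (AT3G26810, TAIR10.1 chromosome 3, 9867652 to 9870782, plus strand) had signals of 3245, 3519 and 3254 in gcn5 and 2452, 2709 and 2616 in ada2b, against 2159, 2136 and 2132 in Col-0. All libraries of all 9 mutants lay above the 3 Col-0 libraries, and AFB2 was called higher in every mutant, from 0.27 ± 0.05, adjusted p = 9.64e-05 in ada2b to 0.64 ± 0.05, adjusted p = 8.7e-11 in gcn5. AFB2 is the only member called higher in all 9 under the deposited scaling, and AFB5, IAA2 and IAA4 joined it after division by column totals. The 9 comparisons share the 3 Col-0 libraries, and how many of all genes were called higher in all 9 was not computed. AFB3 had 1452, 1404 and 1421 in gcn5 and 1383, 1248 and 1318 in ada2b, against 1118, 1078 and 1135 in Col-0. It was called higher in gcn5 (0.36 ± 0.1, adjusted p = 0.00439), spc (0.36 ± 0.1, adjusted p = 0.00513) and spcing1 (0.35 ± 0.1, adjusted p = 0.00539). Its calls in ada2b (0.24 ± 0.1, adjusted p = 0.0422) and ada2aspc (0.24 ± 0.1, adjusted p = 0.0476) did not hold with single libraries left out. For ada2b these were Col-0 replicate 1 (adjusted p = 0.0742), Col-0 replicate 2 (adjusted p = 0.11), Col-0 replicate 3 (adjusted p = 0.0622), ada2b replicate 1 (adjusted p = 0.135) and ada2b replicate 3 (adjusted p = 0.0783). For ada2aspc they were Col-0 replicate 1 (adjusted p = 0.0815), Col-0 replicate 2 (adjusted p = 0.123), Col-0 replicate 3 (adjusted p = 0.0703) and ada2aspc replicate 3 (adjusted p = 0.342).

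AFB1 went in opposite directions. It had 998, 1089 and 929 in ada2b and 1231, 1177 and 1341 in gcn5, against 1237, 1221 and 1182 in Col-0. The ada2b libraries lay below the Col-0 libraries (-0.27 ± 0.08, adjusted p = 0.00333) and the gcn5 libraries overlapped them (0.04 ± 0.08, adjusted p = 0.704). The difference of ada2b from gcn5 was -0.31 ± 0.08, adjusted p = 0.00134. With column totals AFB1 differed by -0.01 in ada2b and was not called. In spcing1 AFB1 had 1801, 2116 and 1975 (0.69 ± 0.08, adjusted p = 1.04e-08) and in sdrl 1949, 1859 and 2012 (0.68 ± 0.08, adjusted p = 2.14e-08), and all libraries of the 7 other mutants lay above Col-0, with log2 fold changes of 0.21 to 0.69. The smallest of these, in ada2a (0.21 ± 0.08, adjusted p = 0.0346), did not hold without any one of the 6 libraries it rests on, with adjusted p between 0.0534 and 0.105.

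AFB4 and AFB5 form a separate branch of the family that also binds the synthetic auxin picloram. AFB5 had 4280.3, 4193 and 4504 in spc, against 2924, 3010.2 and 3076 in Col-0 (0.53 ± 0.06, adjusted p = 6.25e-09), with no overlap. AFB5 was also called higher in ada2a (0.34), ing1 (0.32), sdrl (0.32), ada2aspc (0.44) and spcing1 (0.45). It was not called in gcn5 (0.05 ± 0.06, adjusted p = 0.495), ada2b (-0.07 ± 0.06, adjusted p = 0.332) or eaf6 (0.1 ± 0.06, adjusted p = 0.14), though division by column totals gave calls of 0.25 in gcn5 (adjusted p = 0.0004), 0.2 in ada2b (adjusted p = 0.00251) and 0.14 in eaf6 (adjusted p = 0.0373). AFB4 was called only in spc among the 9 mutants, with 943, 808 and 914 against 649, 802 and 648 in Col-0 (0.35 ± 0.1, adjusted p = 0.00811). After division by column totals AFB4 was also called higher in ada2b, at 0.46 (adjusted p = 0.000234), against 0.26 in spc (adjusted p = 0.0399).

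**Figure D3:**
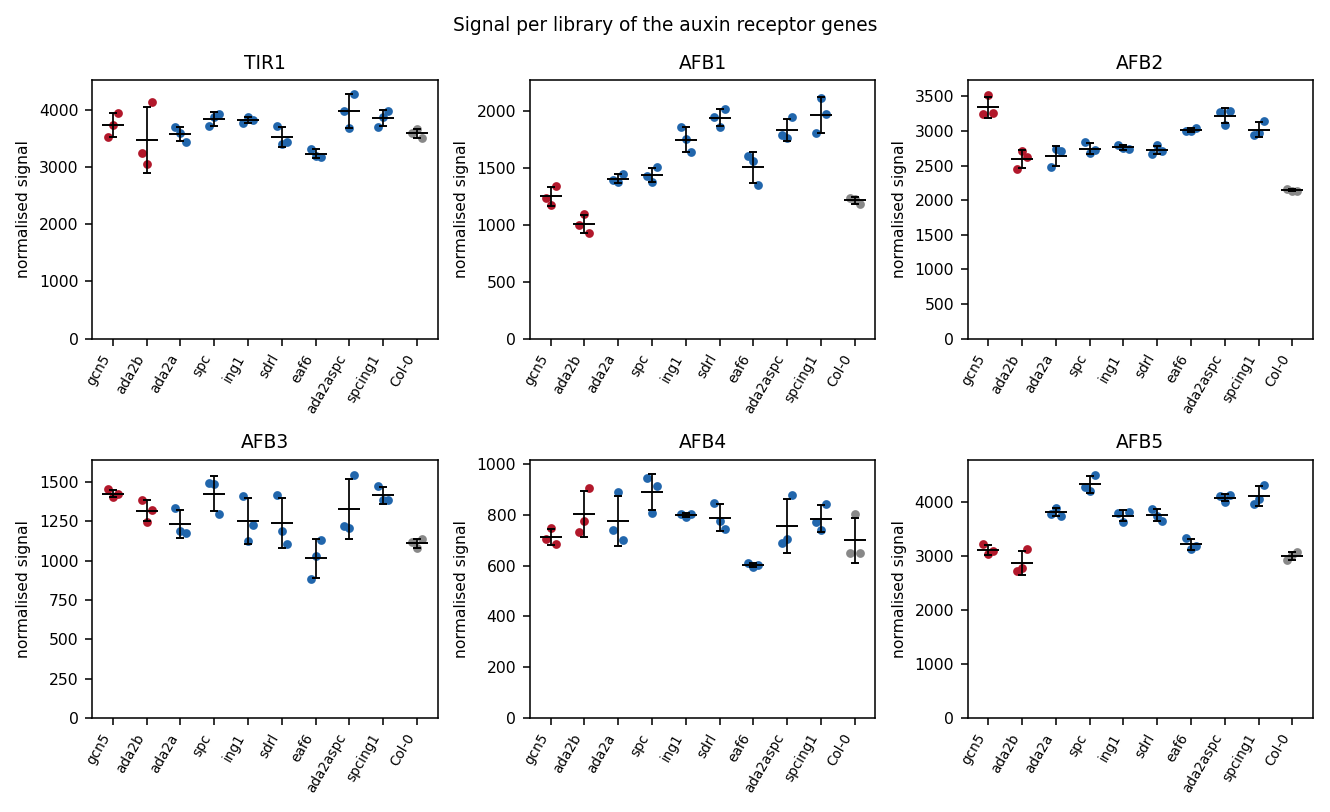
Signal (normalised, linear axis from 0) of the 6 receptor genes in each library, with the mean as a bar and the SD as its error bar (n = 3), red for gcn5 and ada2b, blue for the other 7 mutants and grey for Col-0. AFB2 lies above Col-0 in every mutant, TIR1 stays within -0.15 to 0.15 on the log2 scale of Col-0, and AFB1 lies below Col-0 in ada2b only.

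The largest falls among all members were those of IAA29, IAA6, IAA34 and IAA5, and these were the 4 members that fell by at least 2-fold in gcn5 and the 4 largest falls in ada2b. IAA29 (AT4G32280, TAIR10.1 chromosome 4, 15583332 to 15584903, plus strand), an auxin-inducible gene that also responds to shade and warmth, had signals of 15.7, 15.1 and 20.7 in ada2b and 154, 103 and 142 in gcn5, against 654, 779.6 and 761 in Col-0. The 3 groups did not overlap, and ada2b lay below gcn5. The log2 fold change was -5.34 ± 0.23, adjusted p = 4.07e-18 in ada2b and -2.47 ± 0.23, adjusted p = 4.13e-10 in gcn5, and ada2b differed from gcn5 by -2.87 ± 0.23, adjusted p = 3.22e-11. IAA29 was also called lower in spc (-1.04 ± 0.23, adjusted p = 0.000463), eaf6 (-0.75 ± 0.23, adjusted p = 0.00614) and ada2a (-0.67 ± 0.23, adjusted p = 0.0235). The ada2a call did not hold when leaving out Col-0 replicate 2 (adjusted p = 0.0755), Col-0 replicate 3 (adjusted p = 0.0674) and ada2a replicate 3 (adjusted p = 0.192).

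IAA6 (AT1G52830, TAIR10.1 chromosome 1, 19672476 to 19673652, minus strand), known from the shy1 mutants with altered light responses, had 3.12, 5.39 and 1.70 in ada2b and 41.2, 39.7 and 19.7 in gcn5, against 169, 115 and 97.2 in Col-0. The 21 libraries of the other 7 mutants all lay above the Col-0 libraries, with 299, 262 and 358 in ada2a, 406, 278 and 262 in spc, 271, 376 and 383 in ing1, 308, 371 and 287 in sdrl and 312, 319 and 415 in eaf6. The double mutants had 292, 265 and 242 in ada2aspc and 319, 416 and 362 in spcing1. IAA6 fell by at least 2-fold in ada2b (-4.91 ± 0.27, adjusted p = 1.66e-15) and gcn5 (-1.92 ± 0.27, adjusted p = 1e-06) and rose by at least 2-fold in each of the other 7 mutants, with log2 fold changes from 1.1 ± 0.27, adjusted p = 0.00127 in ada2aspc to 1.55 ± 0.27, adjusted p = 2.19e-05 in spcing1. Its difference between ada2a and ada2b was 6.2 ± 0.27, adjusted p = 5.47e-18, and between ada2b and gcn5 -2.99 ± 0.27, adjusted p = 4.94e-10.

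IAA34 (AT1G15050, TAIR10.1 chromosome 1, 5181991 to 5183413, minus strand) is one of the Aux/IAA genes whose protein has no degron. It had 4.93, 1.21 and 3.59 in ada2b and 5.59, 0 and 12.2 in gcn5, with a single gcn5 library listed at 0, against 87.8, 54.8 and 44.5 in Col-0. Neither mutant overlapped Col-0, and they overlapped each other (-3.96 ± 0.59, adjusted p = 1.78e-06 in ada2b, -3.78 ± 0.59, adjusted p = 5.72e-06 in gcn5). IAA5 (AT1G15580, TAIR10.1 chromosome 1, 5365512 to 5366497, minus strand) had 14.2, 18.0 and 10.6 in ada2b, 46.6, 43.7 and 45.2 in gcn5 and 40.0, 42.3 and 13.3 in spcing1, against 116, 143 and 91.9 in Col-0. All of these lay below Col-0, with log2 fold changes of -2.96 ± 0.38, adjusted p = 1.1e-07 in ada2b, -1.33 ± 0.38, adjusted p = 0.00491 in gcn5 and -1.98 ± 0.38, adjusted p = 7.29e-05 in spcing1. Beside these, IAA5 had 54.0, 45.8 and 63.8 in ada2a, 28.2, 79.6 and 50.1 in spc, 58.2, 39.6 and 45.3 in sdrl and 44.1, 36.8 and 74.2 in eaf6, all below Col-0. It was called lower in ada2a (-1.08 ± 0.38, adjusted p = 0.0295), spc (-1.23 ± 0.38, adjusted p = 0.00938), sdrl (-1.27 ± 0.38, adjusted p = 0.00855) and eaf6 (-1.2 ± 0.38, adjusted p = 0.00848), and was not called in ing1 (-0.66 ± 0.38, adjusted p = 0.178) or ada2aspc (-0.58 ± 0.38, adjusted p = 0.218). The ada2a call did not hold when leaving out Col-0 replicate 1 (adjusted p = 0.0667), Col-0 replicate 2 (adjusted p = 0.115), ada2a replicate 1 (adjusted p = 0.0646) and ada2a replicate 2 (adjusted p = 0.101), the spc call when leaving out spc replicate 1 (adjusted p = 0.0937) and the eaf6 call when leaving out eaf6 replicate 2 (adjusted p = 0.0527).

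**Figure D4:**
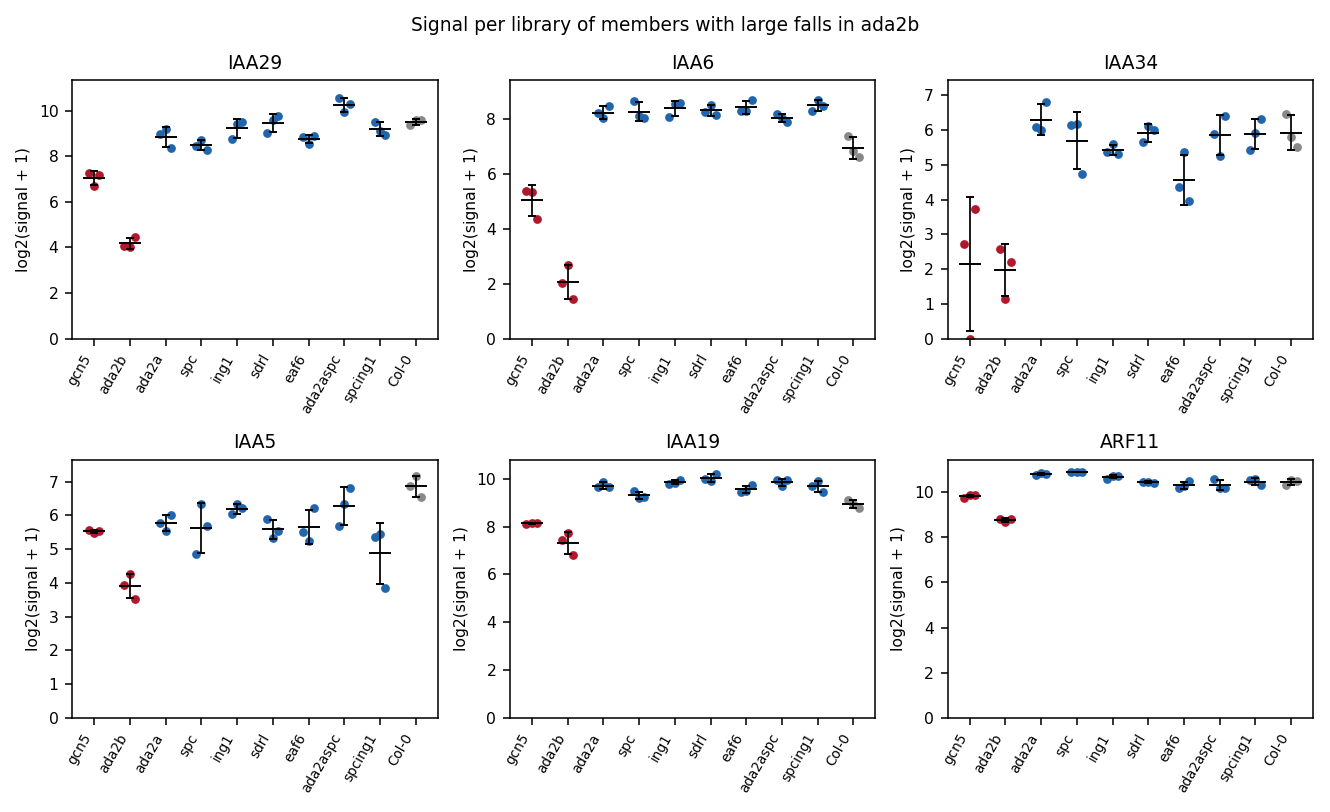
Log2(signal + 1) of IAA29, IAA6, IAA34, IAA5, IAA19 and ARF11 in each library (points), with mean ± SD (n = 3), red for gcn5 and ada2b, blue for the other 7 mutants and grey for Col-0. In all 6 genes ada2b and gcn5 lie below Col-0, and IAA6 and IAA19 lie above Col-0 in most of the other mutants.

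4 further Aux/IAA genes that fell by at least 2-fold in ada2b had higher signals in Col-0 than IAA6, IAA34 and IAA5. IAA27, also known as a phytochrome-associated protein, had 243, 230.1 and 224 in ada2b and 369, 469 and 449 in gcn5, against 750.0, 773 and 782 in Col-0 (-1.72 ± 0.08, adjusted p = 1.41e-16 in ada2b). IAA19, the gene of the msg2 mutants with disturbed hypocotyl bending, had 172, 211 and 113 in ada2b and 275, 279 and 285 in gcn5, against 558, 488 and 439 in Col-0 (-1.62 ± 0.15, adjusted p = 2.63e-10 in ada2b). IAA14, which controls lateral root initiation, had 493, 467 and 525 in ada2b and 693, 657 and 680.5 in gcn5, against 1174, 1097 and 1275 in Col-0 (-1.25 ± 0.09, adjusted p = 5.89e-13 in ada2b). In each of these 3 genes the groups did not overlap, and ada2b lay below gcn5, which lay below Col-0. IAA7, known from the axr2 mutants, had 4233, 4374 and 3328 in ada2b and 6684, 5876 and 6034 in gcn5, against 9329, 8753 and 8088 in Col-0, with the same order of groups (-1.14 ± 0.08, adjusted p = 4.15e-13 in ada2b, -0.49 ± 0.08, adjusted p = 8.81e-06 in gcn5). IAA32, which like IAA34 lacks the degron, had 8.45, 10.1 and 15.4 in ada2b, against 23.2, 58.3 and 35.9 in Col-0 (-1.65 ± 0.36, adjusted p = 0.000359).

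18 members were called lower in both gcn5 and ada2b, and none of them was called higher in ada2b than in gcn5. The share of all genes lower in both was not computed. Taken singly, 24.5% of all genes were lower in gcn5 and 28.1% in ada2b, and both comparisons use the same Col-0 libraries. Of these 18, 11 were called lower in ada2b than in gcn5 and 7 had no call between the mutants. Over all members ada2b was lower than gcn5 in 24 and higher in 2 (42.1% of all genes were called, 22.6% lower and 19.6% higher), and 18 of the 24 were Aux/IAA genes. With column totals 22 were lower and 3 higher. With that scaling, 9 members were lower in both mutants: IAA5, IAA6, IAA7, IAA14, IAA19, IAA27, IAA29, IAA34 and ARF11.

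3 of the genes that carry these falls are shown over the part of the coding sequence that makes the degron, with the 5 codons of its core in capitals (TAIR10.1, RefSeq gene models), because IAA6 and IAA7 share every letter of the core and IAA29 differs from them.
IAA6 (chr1:19673317-19673355, minus strand): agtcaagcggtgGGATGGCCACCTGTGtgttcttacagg
IAA7 (chr3:8195565-8195603, plus strand): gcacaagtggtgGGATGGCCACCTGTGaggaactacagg
IAA29 (chr4:15583939-15583977, plus strand): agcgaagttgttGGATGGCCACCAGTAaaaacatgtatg

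All 3 sequences code for the whole core, as those of 22 of the 29 Aux/IAA genes do. The core was counted as whole only where glycine, tryptophan and 2 prolines were followed by valine or isoleucine. It was found in part in 2 genes, IAA10 and IAA31, and was not found in 5, IAA20, IAA30, IAA32, IAA33 and IAA34. A match in part does not show that the protein lacks a degron. Among the tested genes with the whole core, 15 of 21 were lower and 1 higher in ada2b, and 12 were lower and 3 higher in gcn5. Among the 6 tested genes without the whole core, 2 were lower in ada2b and 1 in gcn5. These 6 genes had mean signals of 3.71 to 105.8 in Col-0, and no test was made between the groups of genes.

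The stretches before the start of some of these genes hold the hexamers TGTCTC or TGTCGG, which ARF proteins are known to bind. Within a window of 250 bases before and 50 bases from the annotated gene start, on either strand, 16 of 29 Aux/IAA genes (55.2%), 3 of 15 ARF genes (20%) and 1 of 6 receptor genes (16.7%) had at least 1 of the 2 hexamers, against 18.7% of 32546 windows over all genes. Counted with or without the other hexamer, TGTCTC was in 41.4% of the Aux/IAA windows and 14.3% of all windows, and TGTCGG in 20.7% and 5.04%. The G-box CACGTG, bound by PIF transcription factors among others, was in 17.2% of the Aux/IAA windows and 7.11% of all. IAA19 and IAA6, both lower in ada2b and gcn5 and higher in most other mutants, share a stretch in which 49 of 58 bases are identical without a gap, printed here 5′ to 3′ on the strand of the gene with TGTCTC in capitals. IAA5, whose window holds the hexamers on both strands (CCGACA is TGTCGG on the other strand), is shown for its order of sites.
IAA19 (chr3:5263814-5263871, plus strand, 187 to 130 bases before the start): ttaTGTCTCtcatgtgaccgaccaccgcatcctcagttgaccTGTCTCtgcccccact
IAA6 (chr1:19673777-19673834, minus strand, 182 to 125 bases before the start): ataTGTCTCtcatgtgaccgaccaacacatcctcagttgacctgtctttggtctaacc
IAA5 (chr1:5366558-5366727, minus strand, 230 to 61 bases before the start): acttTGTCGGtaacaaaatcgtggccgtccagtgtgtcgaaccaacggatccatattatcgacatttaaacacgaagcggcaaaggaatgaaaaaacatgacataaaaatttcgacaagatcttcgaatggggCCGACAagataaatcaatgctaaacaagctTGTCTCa

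A match of letters is a description and not a bound site. Of the 15 tested Aux/IAA genes with a hexamer in the window, 11 were lower and 0 higher in ada2b, with a median log2 fold change of -0.64. Of the 12 without, 6 were lower and 1 higher, with a median of -0.24. In gcn5 the medians were -0.31 with and -0.02 without a hexamer. In the other mutants they were 0.09 (sdrl) to 0.24 (ada2aspc) with and 0.16 (spc, ing1 and sdrl) to 0.36 (ada2aspc) without. No test between genes with and without a hexamer was made. IAA29, the largest fall in ada2b, and IAA2, which was higher in 8 of 9 mutants, had neither hexamer in the window.

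Several Aux/IAA genes were higher in every mutant but gcn5 and ada2b. 8 members were called higher in all 7: IAA2, IAA3, IAA4, IAA6, IAA13, IAA18, AFB1 and AFB2. Of these, 5 were called lower in ada2b (IAA3, IAA6, IAA13, IAA18 and AFB1). How many of all genes had these joint patterns was not computed. Between 15.1% (ada2a) and 25.2% (eaf6) of all genes were higher in a single one of the 7 mutants, which share the Col-0 libraries. After division by column totals 7 members were higher in all 7 mutants, with AFB5 added and IAA13 and AFB1 no longer among them. With size factors from median ratios there were 11.

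IAA2 (AT3G23030, TAIR10.1 chromosome 3, 8180646 to 8182095, minus strand), an auxin-inducible gene often used as a reporter of auxin response, had 5621, 6067 and 5901 in sdrl, 6077, 6087 and 5246 in ada2aspc and 4783, 5553 and 5129 in ing1, against 2366, 2544 and 2337 in Col-0. All libraries of these mutants lay above Col-0. The log2 fold change was 1.28 ± 0.06, adjusted p = 5.81e-16 in sdrl, 1.26 ± 0.06, adjusted p = 9.94e-16 in ada2aspc and 1.09 ± 0.06, adjusted p = 2.87e-14 in ing1. In spcing1 IAA2 had 5003, 5409 and 5235 (1.11 ± 0.06, adjusted p = 9.15e-15), in ada2a 4768, 5015 and 5027 (1.03 ± 0.06, adjusted p = 7.35e-14) and in spc 4634, 5138 and 4706 (1.0 ± 0.06, adjusted p = 1.38e-13). The rise was smaller in eaf6, with 3531, 3573 and 3736 (0.58 ± 0.06, adjusted p = 7.9e-09), and among the mutants where IAA2 was called it was smallest in ada2b, with 2686, 2780.3 and 2776 (0.19 ± 0.06, adjusted p = 0.0144). The ada2b call did not hold when leaving out Col-0 replicate 3 (adjusted p = 0.0612). In gcn5 IAA2 had 2665, 2523 and 2556 and was not called (0.1 ± 0.06, adjusted p = 0.229).

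IAA3, known from the shy2 mutants for its part in the root meristem, had 2049.6, 1909.6 and 1859.8 in sdrl and 1426, 1986 and 1692 in spcing1, and 504, 472 and 539.5 in gcn5, against 698, 739 and 902 in Col-0. The sdrl and spcing1 libraries lay above Col-0 (1.32 ± 0.11, adjusted p = 5.65e-11 and 1.12 ± 0.11, adjusted p = 1.23e-09) and the gcn5 libraries below it (-0.62 ± 0.11, adjusted p = 3.82e-05). IAA3 in ada2b differed by -0.37 ± 0.11, adjusted p = 0.00564, a call that did not hold when leaving out Col-0 replicate 3 (adjusted p = 0.0655) and under division by column totals (-0.11). IAA4, an early auxin-inducible gene, had 5031, 6285 and 5942 in spcing1 (1.02 ± 0.07, adjusted p = 1.54e-12) and 6057, 5744 and 5274 in sdrl (1.01 ± 0.07, adjusted p = 2.61e-12), against 2644, 3113 and 2716 in Col-0. IAA18, which acts in embryo and root patterning, had 2488, 2941 and 2966 in spcing1 (1.19 ± 0.11, adjusted p = 2.54e-10), 2364, 2849 and 2295 in ada2aspc (1.03 ± 0.11, adjusted p = 5.39e-09) and 2732, 2271 and 2418 in sdrl (1.01 ± 0.11, adjusted p = 8.57e-09), against 1112, 1308 and 1253 in Col-0. In ada2b IAA18 had 819, 665 and 937, all below Col-0 (-0.61 ± 0.11, adjusted p = 2.34e-05).

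IAA19 followed the same pattern in most of these mutants. It had 1019, 966 and 1189 in sdrl, against 558, 488 and 439 in Col-0 (1.09 ± 0.15, adjusted p = 9.17e-07), and was also called higher in ada2a (0.77), ing1 (0.92), eaf6 (0.62), ada2aspc (0.91) and spcing1 (0.74). In spc it missed the threshold (0.37 ± 0.15, adjusted p = 0.0541). IAA32 had 62.5, 84.6 and 79.3 in ada2a (1.02 ± 0.36, adjusted p = 0.0338) and 76.9, 70.0 and 79.8 in sdrl (1.03 ± 0.36, adjusted p = 0.0272), against 23.2, 58.3 and 35.9 in Col-0, all above Col-0. Its ada2a call did not hold when leaving out Col-0 replicate 1 (adjusted p = 0.201), Col-0 replicate 3 (adjusted p = 0.0759), ada2a replicate 2 (adjusted p = 0.103) and ada2a replicate 3 (adjusted p = 0.0842). Its sdrl call did not hold when leaving out Col-0 replicate 1 (adjusted p = 0.175), Col-0 replicate 3 (adjusted p = 0.0626), sdrl replicate 1 (adjusted p = 0.063) and sdrl replicate 3 (adjusted p = 0.0703).

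3 pairs of Aux/IAA genes lie close together in divergent orientation, and the genes of a pair were called in the same direction in some mutants and not in others. IAA3 and IAA17 are 6388 bases apart on chromosome 1, IAA2 and IAA7 12510 bases apart on chromosome 3, and IAA14 and IAA1 10732 bases apart on chromosome 4. IAA3 and IAA17 were both lower in ada2b (-0.37 and -0.54), while in spcing1 IAA3 was at 1.12 ± 0.11, adjusted p = 1.23e-09 and IAA17 at -0.2 ± 0.07, adjusted p = 0.0298. IAA2 and IAA7 were both higher in sdrl (1.28 and 0.34), while in ada2b IAA2 was at 0.19 ± 0.06, adjusted p = 0.0144 and IAA7 at -1.14 ± 0.08, adjusted p = 4.15e-13. IAA14 and IAA1 were both lower in ada2b, at -1.25 ± 0.09, adjusted p = 5.89e-13 and -0.83 ± 0.12, adjusted p = 9.13e-07, and both were also lower in gcn5 (-0.8 and -0.35) and eaf6 (-0.43 and -1.21).

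The eaf6 mutant had the most members called lower after ada2b and gcn5, with 14. These are 29.2% of the members, near the 25.9% of all genes called lower in eaf6. IAA1, which is closely related to IAA2, had 321, 266 and 353 in eaf6, against 712, 658 and 799 in Col-0 (-1.21 ± 0.12, adjusted p = 1.29e-09), with no overlap. Among the other 8 mutants it was called only in ada2b (-0.83 ± 0.12, adjusted p = 9.13e-07) and gcn5 (-0.35 ± 0.12, adjusted p = 0.0179), and the gcn5 call did not hold when leaving out Col-0 replicate 3 (adjusted p = 0.101) and gcn5 replicate 3 (adjusted p = 0.0666) and under division by column totals (-0.15). ARF3, which acts in organ polarity and is regulated by small RNAs from TAS3, had 831, 828 and 851 in eaf6, against 1726, 1608 and 1537 in Col-0 (-0.95 ± 0.07, adjusted p = 1.13e-11). IAA8 was at -0.5 ± 0.07, adjusted p = 4.37e-07 in eaf6. Under the deposited scaling ARF1 and ARF9 were called in eaf6 and in no other mutant, at -0.34 ± 0.06, adjusted p = 3.7e-05 and -0.34 ± 0.06, adjusted p = 4.82e-05. With column totals ARF1 was at 0.36 in ada2b and 0.32 in gcn5. IAA27 went the other way, with 1282, 1227 and 1175 in eaf6 against 750.0, 773 and 782 in Col-0 (0.67 ± 0.08, adjusted p = 1.12e-07). The differences between eaf6 and other mutants were not tested.

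The activator ARF genes, whose proteins have a glutamine-rich middle region, fell in ada2b with the exception of ARF7. ARF5 (MONOPTEROS), needed for embryo and vein patterning, had 308, 344 and 346 in ada2b and 484, 533 and 637 in gcn5, against 531, 594 and 606 in Col-0. The ada2b libraries lay below Col-0 (-0.79 ± 0.14, adjusted p = 1.95e-05) and the gcn5 libraries overlapped it (-0.07 ± 0.14, adjusted p = 0.711), and the mutants differed by -0.72 ± 0.14, adjusted p = 0.000121. ARF19, which works with ARF7 in lateral root formation, had 600.0, 627 and 549 in ada2b and 753, 676 and 637 in gcn5, against 964, 818 and 885 in Col-0 (-0.58 ± 0.12, adjusted p = 0.00011 in ada2b, -0.37 ± 0.12, adjusted p = 0.0114 in gcn5). The ARF19 call in gcn5 did not hold when leaving out Col-0 replicate 1 (adjusted p = 0.0621) and gcn5 replicate 3 (adjusted p = 0.0561) and under division by column totals (-0.17). ARF7 had 2391, 2570.0 and 2598 in ada2b and 2122, 2442 and 2367 in gcn5, against 2302, 2392 and 2437 in Col-0. Under the deposited scaling ARF7 was called in no mutant, with log2 fold changes of -0.14 to 0.08. After division by column totals it was no longer among the members without a call in any mutant.

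ARF6 and ARF8 act together in flower maturation and hypocotyl growth and are targets of miR167, while the repressor genes ARF10, ARF16 and ARF17 are targets of miR160. The mature miRNAs (seed in capitals) and the sites in these 5 genes (bases without a Watson-Crick partner in capitals) are shown because ARF8 was called lower in all 9 mutants and ARF17 in 6.
miR167 (chr3:8108090-8108110, plus strand): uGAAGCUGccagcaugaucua
ARF6 (chr1:10686478-10686498, minus strand): GagaucaGgcuggcagcuuGU
ARF8 (chr5:14633841-14633861, plus strand): uagaucaGgcuggcagcuuGU
miR160 (chr2:16340282-16340302, plus strand): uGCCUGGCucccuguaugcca
ARF10 (chr2:12115741-12115761, plus strand): AggAauacagggagccaggca
ARF16 (chr4:14704141-14704161, minus strand): GggUUuacagggagccaggca
ARF17 (chr1:29274189-29274209, plus strand): uggcauGcagggagccaggca

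The site in ARF6 leaves 4 bases unpaired and that in ARF8 3, and the sites in ARF10, ARF16 and ARF17 leave 2, 3 and 1. ARF8 (AT5G37020, TAIR10.1 chromosome 5, 14629453 to 14634454, plus strand) had 1022, 1035 and 1018 in eaf6, 1109, 905 and 1201 in ada2aspc and 1209, 1218 and 1174 in ada2b, against 1746, 1703 and 1569 in Col-0. All 27 mutant libraries lay below the 3 Col-0 libraries, and ARF8 was called lower in all 9 mutants, from -0.29 ± 0.09, adjusted p = 0.00634 in gcn5 to -0.7 ± 0.09, adjusted p = 6.09e-08 in eaf6. The gcn5 call did not hold after division by column totals (-0.09). How many of all genes were called lower in all 9 mutants, which share the Col-0 libraries, was not computed. ARF6 had 2204, 2131 and 2209 in ada2b and 1865, 2586 and 1949 in gcn5, against 2909.9, 3269.9 and 2869.9 in Col-0. It was called lower in gcn5 (-0.51 ± 0.11, adjusted p = 0.000254) and ada2b (-0.47 ± 0.11, adjusted p = 0.000553), the second not after division by column totals (-0.2). A call in eaf6 (-0.26 ± 0.11, adjusted p = 0.045) did not hold when leaving out Col-0 replicate 1 (adjusted p = 0.0565), Col-0 replicate 2 (adjusted p = 0.182), eaf6 replicate 1 (adjusted p = 0.0635) and eaf6 replicate 3 (adjusted p = 0.195).

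Of the miR160 targets, ARF17 fell in 6 of 9 mutants. It had 449.8, 502 and 479.9 in sdrl, against 764, 669 and 649.9 in Col-0 (-0.54 ± 0.1, adjusted p = 0.000149), with no overlap. It was also called lower in spcing1 (-0.39), eaf6 (-0.39), ing1 (-0.34), ada2aspc (-0.31) and ada2b (-0.27). The ing1 call did not hold when leaving out Col-0 replicate 1 (adjusted p = 0.0825) and ing1 replicate 3 (adjusted p = 0.0621), and the ada2aspc call when leaving out Col-0 replicate 1 (adjusted p = 0.096). In ada2b, with 574, 659 and 500.0, the libraries overlapped Col-0, and the call did not hold when leaving out Col-0 replicate 1 (adjusted p = 0.162), ada2b replicate 1 (adjusted p = 0.0647) and ada2b replicate 3 (adjusted p = 0.213) and under division by column totals (-0.01). ARF10 was called only in gcn5, with 741, 767 and 698 against 861, 841 and 843 in Col-0 (-0.21 ± 0.08, adjusted p = 0.0415), and ARF16 only in sdrl, with 1080.1, 1151 and 987 against 1227, 1271 and 1235 in Col-0 (-0.22 ± 0.08, adjusted p = 0.0381). The ARF10 call did not hold when leaving out Col-0 replicate 1 (adjusted p = 0.0978), Col-0 replicate 2 (adjusted p = 0.0742), Col-0 replicate 3 (adjusted p = 0.0749), gcn5 replicate 1 (adjusted p = 0.0738) and gcn5 replicate 3 (adjusted p = 0.147), and the ARF16 call when leaving out Col-0 replicate 1 (adjusted p = 0.0642), Col-0 replicate 2 (adjusted p = 0.104), Col-0 replicate 3 (adjusted p = 0.071), sdrl replicate 1 (adjusted p = 0.0677) and sdrl replicate 3 (adjusted p = 0.189).

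Among the remaining ARF genes ARF11 fell most. ARF11 (AT2G46530, TAIR10.1 chromosome 2, 19104632 to 19108486, plus strand), a close relative of ARF18 and ARF9, had 441, 408 and 452 in ada2b and 861, 921 and 925 in gcn5, against 1255, 1497 and 1453 in Col-0. The 3 groups did not overlap (-1.69 ± 0.09, adjusted p = 1.78e-15 in ada2b, -0.63 ± 0.09, adjusted p = 2.13e-06 in gcn5), and ada2b was below gcn5 by -1.06 ± 0.09, adjusted p = 3.07e-10. ARF18 had 529, 504 and 598 in ada2b (-0.78 ± 0.1, adjusted p = 1.64e-07), 723, 771 and 615 in eaf6 (-0.42 ± 0.1, adjusted p = 0.0011) and 1263, 1356 and 1196 in ada2a (0.44 ± 0.1, adjusted p = 0.00127), against 916, 929.5 and 958 in Col-0. It thus lay below Col-0 in ada2b and eaf6 and above it in ada2a. ARF4, a second target of TAS3 small RNAs, was called lower in 8 mutants, all but ada2b. In the 7 other than gcn5 and ada2b it ranged from -0.32 ± 0.08, adjusted p = 0.00251 in ada2a to -0.67 ± 0.08, adjusted p = 2.8e-08 in eaf6. Its mean in gcn5 was 85.1% of that in Col-0, a call made under the deposited scaling. In ada2b ARF4 had 2199, 2096 and 2028, against 1819, 1951 and 1890.3 in Col-0, all above Col-0 but not called (0.16 ± 0.08, adjusted p = 0.0881), and it was higher than in gcn5 by 0.4 ± 0.08, adjusted p = 0.000151.

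ADA2A and ADA2B are alternative partners of GCN5, and their mutants were compared directly. In ada2a 28 members were higher than in ada2b and 1, ARF4, was lower. In all 60.4% of members were called, against 63.7% of all genes, and 58.3% of members were higher, against 33.5% of all genes higher and 30.2% lower. With column totals, which shifted the median of all genes by -0.34 in this comparison, 20 were higher and 16 lower. Of the 27 Aux/IAA genes 20 were higher in ada2a and none was lower, with a median difference of 1.0, and after division by column totals 16 were higher and 4 lower. IAA29 had 503, 586 and 325 in ada2a and 15.7, 15.1 and 20.7 in ada2b (4.67 ± 0.23, adjusted p = 6.29e-17). IAA34 had 67.1, 63.7 and 111 in ada2a and 4.93, 1.21 and 3.59 in ada2b (4.33 ± 0.59, adjusted p = 2.6e-07). ARF11 had 1722, 1846 and 1771 in ada2a and 441, 408 and 452 in ada2b (2.04 ± 0.09, adjusted p = 1.59e-17).

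The double mutants test whether losing a second subunit adds to the first. In ada2aspc 6 members were higher and 5 lower than in ada2a (14.7% of all genes were called), and 8 were higher and 4 lower than in spc (11.9%). In spcing1 2 were higher and 3 lower than in spc (7.06%). Compared with ing1 no member was called in spcing1 by limma (2.82% of all genes were called), 8 had an unadjusted p below 0.05, and the smallest adjusted p was that of IAA5 (-1.32 ± 0.38, adjusted p = 0.0513).

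The member that stood out was IAA29, which was lower than Col-0 in both single mutants and higher in the double. It had 1495, 970.5 and 1252 in ada2aspc, 503, 586 and 325 in ada2a and 349.6, 417 and 307 in spc, against 654, 779.6 and 761 in Col-0. All ada2aspc libraries lay above all others of these groups. The double differed from ada2a by 1.41 ± 0.23, adjusted p = 4.74e-05, from spc by 1.78 ± 0.23, adjusted p = 1.69e-06 and from Col-0 by 0.74 ± 0.23, adjusted p = 0.008. The Col-0 call did not hold when leaving out ada2aspc replicate 1 (adjusted p = 0.0577). The sum of the single effects was -1.71 and the effect in the double 0.74, a non-additive difference of 2.45 ± 0.32, adjusted p = 7.09e-07.

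IAA2, IAA3, IAA4, IAA6 and IAA18 rose in the single mutants and rose in the doubles by less than the sum of both effects. The test of the double against the sum of its singles called 11 members in ada2aspc, 3 higher and 8 lower than the sum (18.6% of all genes were called), and 11 in spcing1, 1 higher and 10 lower (18.6%). With column totals the split in spcing1 was 1 higher and 8 lower. IAA6 had a sum of 2.61 and an effect of 1.1 in ada2aspc (-1.51 ± 0.38, adjusted p = 0.00463). IAA2 had a sum of 2.03 and an effect of 1.26 in ada2aspc (-0.77 ± 0.09, adjusted p = 9.27e-08), and a sum of 2.09 and an effect of 1.11 in spcing1 (-0.98 ± 0.09, adjusted p = 1.41e-09). IAA4 had a sum of 1.86 and an effect of 0.92 in ada2aspc (-0.94 ± 0.1, adjusted p = 3.36e-08), and 1.89 and 1.02 in spcing1 (-0.87 ± 0.1, adjusted p = 2.44e-07). IAA3 had 1.72 and 0.65 in ada2aspc (-1.07 ± 0.16, adjusted p = 5e-06). ARF11 had 0.78 and -0.15 in ada2aspc (-0.93 ± 0.13, adjusted p = 2.92e-06). IAA2, IAA3, IAA4, IAA6, IAA18, IAA29, ARF11, ARF18 and AFB5 were called in both doubles, which share the spc and Col-0 libraries.

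**Figure D5:**
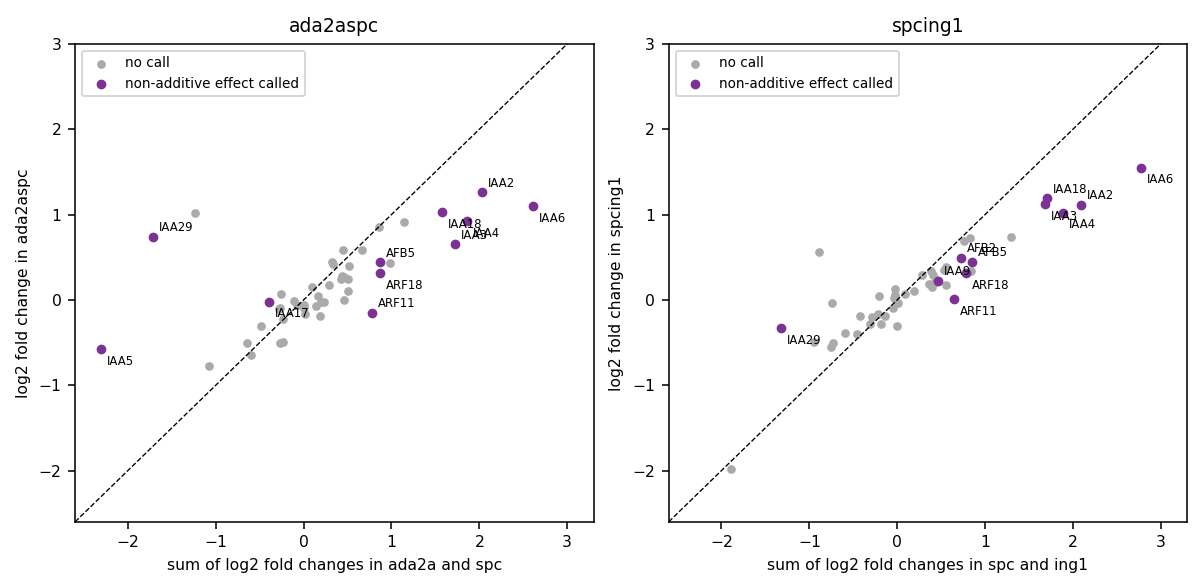
Effect in the double mutant against the sum of the effects in its 2 single mutants, as log2 fold changes against Col-0, for each tested member, with ada2aspc and spcing1 as separate panels. The dashed line marks equality and purple points are members called in the non-additive test. Genes with large positive sums, such as IAA6 with 2.61 in ada2aspc, lie below the line, and IAA29 in ada2aspc lies far above it.

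The other genes of the pathway were counted by list, and the shares of all genes called were 51.6% in ada2b and 42.7% in gcn5. Of 9 genes of the SCF complex and its regulators 4 were higher and 2 lower in ada2b and 3 were higher and 1 lower in gcn5, where 4 of 9 called is near the share among all genes. CUL1, the cullin scaffold, was at 0.29 ± 0.05, adjusted p = 5.83e-05 in gcn5 and 0.27 ± 0.05, adjusted p = 0.000103 in ada2b. CAND1, which exchanges F-box proteins on the cullin, was at 0.44 ± 0.1, adjusted p = 0.000369 in ada2b, and ASK2, an adaptor, at -0.44 ± 0.06, adjusted p = 1.98e-06 in gcn5. ASK1 and ASK2 are similar in sequence, so reads could be split between them. Under division by column totals 7 of the 9 were higher and none lower in ada2b, and 4 were higher and 1 lower in gcn5.

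Of the 5 TPL and TPR co-repressor genes TPR3 was lower in gcn5 (-0.77 ± 0.11, adjusted p = 7.24e-07), and in ada2b TPL was higher (0.21 ± 0.09, adjusted p = 0.0468) and TPR1 lower (-0.24 ± 0.09, adjusted p = 0.021). With column totals 3 were higher and none lower in ada2b, and 2 were higher and 1 lower in gcn5. Of 17 tested genes (18 listed) known as targets of ARF proteins, 3 were higher and 7 lower in ada2b and 4 were higher and 4 lower in gcn5. In both mutants the share of these genes called is near that among all genes. In the other mutants 10 were higher and 1 lower in ada2aspc, 9 and 1 in sdrl, 8 and 1 in spcing1, 7 and 1 in ing1, 6 and 3 in spc, 5 and 1 in ada2a and 5 and 1 in eaf6. SAUR10, a small auxin-induced growth gene, was at -3.52 ± 0.35, adjusted p = 7.08e-10 in ada2b and -1.98 ± 0.35, adjusted p = 2.83e-05 in gcn5. GH3.5 and GH3.2, whose enzymes conjugate auxin to amino acids, were higher, at 1.01 ± 0.1, adjusted p = 9.79e-10 and 0.95 ± 0.1, adjusted p = 7.26e-09 in ada2b, while GH3.3 of the same family was lower at -1.34 ± 0.19, adjusted p = 5.24e-07. HAT2, an auxin-induced homeobox gene, was at -1.0 ± 0.14, adjusted p = 3.43e-07 in ada2b. With column totals the split of the target genes was 6 higher and 5 lower in ada2b, 5 and 3 in gcn5, 9 and 2 in ada2aspc and 7 and 1 in sdrl. It was 5 and 1 in ada2a, 4 and 3 in spc, 7 and 1 in ing1, 5 and 1 in eaf6 and 6 and 1 in spcing1.

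Of 7 tested precursor genes of small RNAs that target receptors or ARF genes (12 listed) 3 were lower and none higher in ada2b, also with column totals. In gcn5 1 was lower and 1 higher (2 higher and 1 lower with column totals). MIR167D was at -3.12 ± 0.28, adjusted p = 1.15e-10 in ada2b and -1.09 ± 0.28, adjusted p = 0.0022 in gcn5, and MIR167A at 1.32 ± 0.29, adjusted p = 0.000412 in gcn5. TAS3, the source of the small RNAs against ARF3 and ARF4, was at -1.36 ± 0.14, adjusted p = 3.09e-09 in ada2b, and MIR160C at -1.58 ± 0.51, adjusted p = 0.0107. These values measure precursor transcripts and not the mature small RNAs. Strandedness and read counter are not given in the sources used here, so reads of overlapping genes cannot be told apart.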

How the data were processed

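Messenger RNA of whole seedlings was sequenced as 150-bp pairs on an Illumina instrument, per the labels. The tools named per the submitters' processing notes are HISAT2, edgeR and bcl2fastq, with TAIR10 as the build. The sources used here give no versions, read counter or strand setting. The authors deposited a normalised signal per gene for 32548 genes and 30 libraries, without whole values, so no count test was run.

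The 21868 genes whose signal reached 10 in 3 or more libraries were tested with limma 3.58.1 in R 4.3.3 on log2(signal + 1). One fit held all 30 libraries and 1 term for each genotype (20 residual degrees of freedom), with a variance trend and Benjamini-Hochberg adjustment at 0.05 over all genes tested. The pseudocount of 1 understates the change of low genes. The fit was tested on simulated data. Because the deposited values are already normalised, sequencing depth per library is unknown here, and the number of libraries (3 per genotype) limits the precision. No pair of columns was identical. Contrasts were each mutant against Col-0, ada2b against gcn5, ada2a against ada2b, each double mutant against its single mutants, and each double against the sum of its singles.

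The members and gene lists were chosen with earlier results of these data known. All 50 members were counted. Those called with at least a 2-fold change against Col-0 (up to 8 in ada2b and gcn5, up to 4 in each other mutant), the 6 receptors, the activator ARF genes, the miR160 targets and up to 4 genes of each list are described with values, and the other members named were chosen after their values were seen. Coordinates, names and sequences came from the TAIR10.1 annotation of RefSeq, which holds all 32548 locus codes, and letters were read from that genome only. Small RNA sites were the best-pairing windows in the spliced transcripts. Levels per kilobase used the summed length of all exons. Alternatives were size factors from median ratios, division by column totals, a pseudocount of 16, no filter on low values, the replicate number as a block, a fit of only the groups compared, and leaving out each library. Tables and plots used Python 3.11.15, pandas 2.3.3, numpy 2.4.6 and matplotlib 3.10.9.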

Additional observations from a re-analysis of the deposited data

Results flagged for a closer look

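The effect in a double mutant differed from the sum of its single mutants, each set against Col-0, in 22 cases by the interaction test of limma, and the values below are the double minus the sum on the log2 scale. In ada2aspc the double lay below the sum for IAA2 (-0.77), IAA3 (-1.07), IAA4 (-0.94), IAA6 (-1.51), IAA18 (-0.55), ARF11 (-0.93), ARF18 (-0.57) and AFB5 (-0.43), and above it for IAA5 (1.73), IAA17 (0.38) and IAA29 (2.45). In spcing1 the double lay below the sum for IAA2 (-0.98), IAA3 (-0.56), IAA4 (-0.87), IAA6 (-1.22), IAA9 (-0.24), IAA18 (-0.51), ARF11 (-0.64), ARF18 (-0.47), AFB2 (-0.23) and AFB5 (-0.39), and above it for IAA29 (0.98). Both sets rest on the same spc and Col-0 libraries, and a high or low value in these moves both. TCH4 and CCA1 also differed from Col-0 in all of these mutants, and their part was not tested.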

How the results depend on the processing

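Of 816 results (48 members in 17 comparisons), 718 kept their call or lack of one after division by column totals, 42 gained a call, 40 lost it and 16 with a call under at least 1 of the scalings changed sign. A further 53 that were called under neither also changed sign and are counted among the 718. The 16 values were IAA13 in gcn5 (0.01), IAA4 (0.15), IAA16 (0.07), TIR1 (0.21) and AFB5 (0.2) in ada2b, and, in ada2a against ada2b, IAA9 (-0.22), IAA12 (-0.02), IAA17 (-0.01), IAA26 (-0.24), IAA28 (-0.3), ARF6 (-0.03), ARF9 (-0.3), ARF10 (-0.23), ARF17 (-0.31), TIR1 (-0.29) and AFB2 (-0.32). This scaling moves all genes of a comparison together. Between spcing1 and ing1 1 member was called with column totals and 1 with a pseudocount of 16, against 0 with the settings of the report.

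Leaving out a library gave 20 to 25 members called in gcn5, 26 to 29 in ada2b, 14 to 17 in ada2a (20 with all libraries), 19 to 22 in spc, 17 to 22 in ing1, 18 to 21 in sdrl, 27 to 29 in eaf6, 19 to 23 in ada2aspc and 22 to 26 in spcing1. Between ada2aspc and ada2a 6 to 12 were called (11 with all), with 6 without ada2a replicate 1 and 7 without ada2aspc replicate 1. Between spcing1 and spc 2 to 5 were called (5 with all), with 3, 2 and 3 without spc replicates 1, 2 and 3 and 3 without spcing1 replicate 2. Between spcing1 and ing1 0 to 3 were called, with 3 without spcing1 replicate 1. For the non-additive effect in spcing1 7 to 11 were called (11 with all), with 7 without Col-0 replicate 3, ing1 replicate 1, spc replicate 1 or spcing1 replicate 1. The cause was not tested.

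Replicate numbers do not pair the libraries: deviations of same-numbered libraries correlated at -0.111 to 0.087 over 135 pairs, and those with different numbers at -0.102 to 0.123 over 270. With the replicate number as a block, 809 of 816 results were unchanged, 3 gained a call and 4 lost it, and 25 members were called in gcn5 and 29 in ada2b. Low signals limit what could be called for IAA20, with genotype means of 0.686 to 8.97, and for IAA30, IAA31, IAA32 and IAA34, with means of at most 80.6.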
